A study of Mus musculus with 2 samples.

Results

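Basophils of mouse alveolar bone, selected on measured values, were described cell by cell in 2 single-cell RNA libraries. A cell was taken as a basophil where its barcode held at least 1000 unique molecular identifiers (UMIs, each counting 1 captured RNA molecule) of mouse genes with at most 20% of them mitochondrial, at least 3 UMIs of Prss34 plus Mcpt8, and at least 1 UMI of Fcer1a. Of 21809 barcodes that passed the depth and mitochondrial limits (gated cells below), 58 were basophils, 19 of 9365 in library 1 and 39 of 12444 in library 2. Their share of gated cells was 0.203% (95% exact binomial interval 0.122% to 0.317%) and 0.313% (0.223% to 0.428%). The intervals overlapped. The bone around the tooth roots came from 12 C57BL/6J mice aged 6 to 8 weeks in a study of orthodontic tooth movement. In 1 group a coil spring pulled the right upper first molar with 25 g, and in the other the spring was fitted without force. On day 7 the bone within 1 mm was taken, pooled over 6 mice per group, digested for 60 min and freed of red cells by lysis. The labels do not say which library came from which group, so force and control cannot be compared, and each library is a single pool with no replicate. No test is given for that reason, and all intervals cover counting error only.

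Basophils are rare blood granulocytes that mature in the bone marrow under interleukin-3 and need the transcription factor GATA2. They carry IgE on the high-affinity IgE receptor, which is built from an alpha chain (Fcer1a), a beta chain (Ms4a2) and a shared gamma chain (Fcer1g). When this receptor or an alarmin receptor is engaged they release histamine, proteases and leukotrienes and secrete interleukin-4 and interleukin-13. Interleukin-4 and interleukin-13 are known to restrain osteoclast formation, whereas interleukin-1 and interleukin-6 are known to favour it.

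The cells were chosen by their UMIs of Prss34, Mcpt8 and Fcer1a, so the levels of these 3 genes are a description only. Levels are given as UMIs of a gene per 1000000 UMIs summed over the cells of a library (CPM), without scaling to transcript length, and are followed by a 95% Poisson interval. Prss34, a serine protease of the granules, stood at 39910.4 CPM (38835 to 41008) in library 1 and 45458 CPM (44694 to 46231) in library 2. It ranged over 0 to 1437 UMIs per cell, median 251 in library 1, and over 1 to 1428 UMIs per cell, median 179 in library 2. Mcpt8, the other basophil granule protease, stood at 15336 CPM (14672 to 16022) in library 1 and 16573 CPM (16113 to 17043) in library 2. Fcer1a stood at 726 CPM (587 to 887) in library 1 and 863 CPM (760.1 to 975) in library 2, with 1 to 23 UMIs per cell, median 3 and 1 to 26 UMIs per cell, median 5. The protease genes were thus spread widely over cells, whereas Fcer1a was near its limit of detection in many of them. Of the chosen cells, 7 in library 1 and 10 in library 2 held a single Fcer1a UMI. Another 31 and 71 gated cells held at least 3 UMIs of Prss34 plus Mcpt8 but no Fcer1a. Of these, the 13 and 16 cells with at least 10 such UMIs had Cpa3 at 1225 and 1292 CPM, while the 18 and 55 cells with 3 to 9 had Cpa3 at 113.6 and 66.2 CPM. Only 5 and 9 cells held Fcer1a with fewer than 3 protease UMIs. Barcodes of 10 to 100 UMIs, which hold mainly free RNA, had Prss34 at 119 and 186 CPM and Fcer1a at 1.85 and 2.82 CPM.

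The chosen cells were deep for this dataset. Their median was 6353 UMIs in library 1 (range 2863 to 12685) and 7134 in library 2 (1511 to 23206), with medians of 2225 and 2216 genes. All other gated cells had medians of 3512 and 4448 UMIs. Deeper barcodes are more likely to show a UMI of a scarce gene such as Fcer1a, so the rule itself favours depth. The 13 and 16 gated cells with at least 10 protease UMIs but no Fcer1a had medians of 3754 and 3867 UMIs. How much of the depth came from the rule was not tested. The basophils together held 130868 and 296804 UMIs, so that 1 UMI was worth 7.64 and 3.37 CPM. No basophil barcode was also a gated cell of the other library, although 75 gated barcodes occurred in both. No doublet caller was run.

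Of the 58 barcodes, 11 met the rule but also carried genes of other cells, and several results rest on 3 of them. The deepest barcode of library 1, with 12685 UMIs, held 39 protease UMIs and 1 of Fcer1a, but also 84 UMIs of the monocyte gene Ly6c2 and 148 of the interferon-induced gene Rsad2. It held 2 UMIs of Cpa3 and none of Gata2. The barcode ranked 11 by depth in library 1 held 112 UMIs of Selp, which encodes P-selectin, 13 of Emcn and 7 of Cdh5, genes of blood vessel lining, with 8 protease UMIs and no Ms4a2, Cpa3, Gata2 or Cd200r3. In library 2 the barcode ranked 22 held the mast cell genes Tpsb2, Cma1 and Mcpt4 at 163, 116 and 104 UMIs, and Kit at 18. It held 5 UMIs of Prss34 and none of Mcpt8. The other 8 held basophil genes beside UMIs of genes of other cells. In 5 of them neutrophil markers made up at least 0.5% of UMIs (rank 8 in library 1, ranks 15, 16, 20 and 34 in library 2), and in rank 37 of library 2 erythroid markers did. Neutrophil gene UMIs were present in all 19 and 39 basophils, with a median of 3399 and 2426 CPM per cell. Free RNA also held neutrophil and globin genes, with values given below. Whether the neutrophil and erythroid UMIs of these barcodes came from a second cell or from free RNA was not tested. Rank 23 of library 2 held 36 erythroid UMIs and 51 of the 76 platelet gene UMIs of its library, beside 13 of Ms4a2 and 18 of Cpa3. Rank 5 of library 2 held 74 of the 95 B-lineage gene UMIs, beside 19 of Cpa3. These 11 barcodes were kept. Values without the first 3 or without all 11, alternatives chosen after seeing the data, are given where they matter.

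Basophil genes that the rule did not use were high in both libraries. Of 14 measured identity genes outside the rule, 12 were at least 2-fold higher in basophils than in all other gated cells in both libraries and none was lower. A gene counted as measured where the mean of both cell groups reached 50 CPM in each library, which held for 2883 genes, and 8.39% of them were at least 2-fold higher by the same rule. The median log2 fold of the list was 3.49 and 3.59, beside 0.12 and 0.09 over all measured genes. Ms4a2, the receptor's beta chain, stood at 1184 CPM (1005 to 1386) in library 1 and 805 CPM (706 to 914) in library 2, against 2.57 and 2.25 CPM in all other gated cells. Cpa3, the carboxypeptidase A3 of basophil and mast cell granules, stood at 2002 CPM (1767 to 2259.7) in library 1 and 2860.5 CPM (2671 to 3059.5) in library 2, against 5.97 and 5.62 CPM. Gata2 reached 1414 CPM (1217 to 1633) in library 1 and 1290.4 CPM (1164 to 1426) in library 2, a fold of 104 and 91.0. Cd200r3, an activating receptor, reached 772 and 606 CPM, a fold of 358 and 479. Each of these 4 genes was far above other cells in both libraries. Lilrb4a and Cd69 were called neither way, and Itga2, which encodes the DX5 antigen often used to sort mouse basophils, was not measured, at 30.6 and 57.3 CPM with a UMI in 3 of 19 and 11 of 39 basophils.

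A few cells accounted for much of what the libraries held of Ms4a2 and Cpa3. Basophils, with 58 of 21809 gated cells, held 53.3% of the 291 UMIs of gated cells in library 1 and 55.7% of the 429 in library 2 of Ms4a2. For Cpa3 they held 45.3% of the 578 UMIs of gated cells in library 1 and 64.1% of the 1324 in library 2. Cpa3 was detected in 16 of 19 and 36 of 39 basophils, 84.2% and 92.3%, and in 0.148% and 0.153% of B-lineage cells, a type that should lack it. B-lineage cells (at least 5 UMIs of Cd79a plus Cd79b) had medians of 2697 and 2361 UMIs, below those of basophils. After each cell was thinned to 1000 UMIs the shares for Cpa3 were 62.8% and 74.0% in basophils and 0.0544% and 0.0541% in B-lineage cells. Free RNA was low for this gene, at 7.07 and 14.2 CPM in barcodes of 10 to 100 UMIs. Progenitors with at least 2 UMIs of Kit and 1 of Cd34 had 47.7 and 33.4 CPM.

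**Figure D1:**
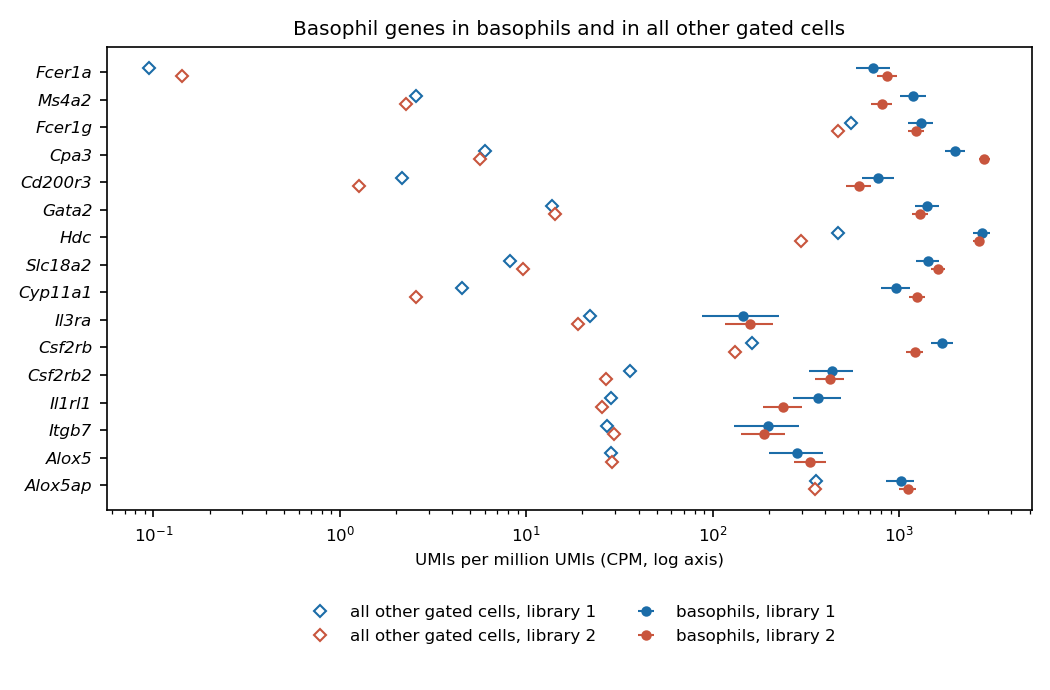
Levels of 16 basophil genes in CPM on a log axis, with filled circles for basophils (19 and 39 cells), bars for 95% Poisson intervals, open diamonds for all other gated cells, blue for library 1 and red for library 2. Each filled circle lies to the right of the diamond of its gene and library. Fcer1a, a gene of the rule, is higher by the choice of cells.

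Starts of several of these genes carry the letters that GATA factors are known to bind. The 250 bases before the start of each gene were taken from RefSeq on build GRCm38.p6 and searched on both strands for AGATAA and AGATAG and for TGATAA and TGATAG, which cannot match the same 6 bases. At least 1 match was present in 26.5% of all 32851 promoters, in 16.7% of those of measured genes and in 24.2% of the 248 promoters found for 181 of the 242 genes that were 2-fold higher. Among the 25 genes with the highest fold, 22 had an entry, and 41.9% of their 31 promoters held a match. These shares are a description and show no binding. Some promoters of genes that stood high together are printed here. They were picked because they hold a match, so they do not show how common matches are at such genes. Matches are in capitals, and each sequence is read 5′ to 3′ on the strand of its gene.
Prss34, chr17:25298144-25298393, forward strand: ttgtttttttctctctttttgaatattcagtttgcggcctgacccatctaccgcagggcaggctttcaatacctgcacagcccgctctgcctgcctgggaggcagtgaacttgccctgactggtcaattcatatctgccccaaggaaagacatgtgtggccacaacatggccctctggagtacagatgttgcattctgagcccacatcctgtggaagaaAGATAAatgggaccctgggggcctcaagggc
Fcer1a, chr1:173227230-173227479, reverse strand: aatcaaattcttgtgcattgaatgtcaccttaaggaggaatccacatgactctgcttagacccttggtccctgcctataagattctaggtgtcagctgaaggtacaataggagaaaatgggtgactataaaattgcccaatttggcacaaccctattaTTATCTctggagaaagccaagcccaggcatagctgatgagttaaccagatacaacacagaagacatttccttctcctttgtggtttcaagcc
Ms4a2, chr19:11623720-11623969, reverse strand: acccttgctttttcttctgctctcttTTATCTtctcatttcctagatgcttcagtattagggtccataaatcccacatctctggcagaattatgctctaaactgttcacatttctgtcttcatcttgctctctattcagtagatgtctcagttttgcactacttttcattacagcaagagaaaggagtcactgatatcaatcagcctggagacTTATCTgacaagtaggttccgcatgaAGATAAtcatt
Cpa3, chr3:20242182-20242431, reverse strand: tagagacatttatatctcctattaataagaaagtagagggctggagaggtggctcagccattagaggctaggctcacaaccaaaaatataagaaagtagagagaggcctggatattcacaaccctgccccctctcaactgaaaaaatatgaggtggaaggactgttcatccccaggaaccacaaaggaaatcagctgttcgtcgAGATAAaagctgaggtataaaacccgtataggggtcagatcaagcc
Cd200r3, chr16:44943428-44943677, forward strand: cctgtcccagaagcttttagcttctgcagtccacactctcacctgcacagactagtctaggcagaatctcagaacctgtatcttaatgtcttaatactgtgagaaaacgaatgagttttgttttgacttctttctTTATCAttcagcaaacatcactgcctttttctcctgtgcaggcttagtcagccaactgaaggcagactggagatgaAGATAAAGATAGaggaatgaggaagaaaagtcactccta
Il13, chr11:53634703-53634952, reverse strand: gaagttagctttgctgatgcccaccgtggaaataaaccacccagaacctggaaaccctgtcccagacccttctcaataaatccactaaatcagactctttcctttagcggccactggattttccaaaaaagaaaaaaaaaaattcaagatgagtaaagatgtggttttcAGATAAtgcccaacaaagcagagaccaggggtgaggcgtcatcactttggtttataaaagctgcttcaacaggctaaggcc
Prss34 has AGATAA 31 bases before its start and Cpa3 has it 46 bases before. Ms4a2 has 3 matches, at 224, 37 and 11 bases, and Cd200r3 has 3, at 115, 39 and 33. In Fcer1a the match, TTATCT, lies on the opposite strand at 92 bases. Il13 has AGATAA at 81 bases, and of the 2 starts listed for Il4, 1 has TGATAG at 80 bases and the other has no match. Mcpt8 and Gata2 have none of these letters in this window.

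Of the IgE receptor and its signalling genes 12 were measured. Fcer1a was higher by the choice of cells, and of the 11 others Ms4a2, Fcer1g, Lat2 and Gab2 were higher, none was lower and 7 were neither. Fcer1g, which other myeloid cells also use, stood at 1307 CPM (1118 to 1518) in library 1 and 1233 CPM (1110.02 to 1366) in library 2, a fold of 2.39 and 2.62. Lat2, an adaptor below the receptor, reached 229 and 152 CPM, a fold of 15.6 and 8.24, and Gab2, another adaptor, 160.5 and 118 CPM against 40.2 and 30.1 CPM. The kinases Lyn and Syk, which start the signal, stood at 206 and 94.3 CPM and at 153 and 121 CPM, against 184 and 148 CPM and 182 and 139 CPM in all other gated cells.

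Of histamine and granule genes, Hdc was found in every cell. Of 13 measured genes of this list, 7 were higher and none lower, Prss34 and Mcpt8 of the rule among them. Hdc, the enzyme that makes histamine, stood at 2766 CPM (2489 to 3066) in library 1 and 2665 CPM (2483 to 2857) in library 2 and was found in 19 of 19 and 39 of 39 basophils. All other gated cells had 471 and 299 CPM, and the cells with at least 2 UMIs of Csf3r and 2 of Asprv1, Hcar2 or Acod1, called the Csf3r group here, had 1144 and 829.9 CPM. That group was mixed. The progenitor granule genes Mpo, Elane, Prtn3 and Ctsg summed to 5651 and 12715 CPM in it. Slc18a2, which loads histamine into vesicles, reached 1421 CPM (1224 to 1641) in library 1 and 1614 CPM (1473 to 1765) in library 2, a fold of 173 and 168, in 12 of 19 and 36 of 39 basophils. Gzmb, a granzyme better known from killer lymphocytes, stood at 1437 CPM (1239 to 1657) in library 1 and 687 CPM (596 to 788) in library 2, and 48.9% of its UMIs in library 1 lay in 1 cell. Without that cell its level in library 1 was 751 CPM. Srgn, the proteoglycan that packs granules, was 2.32 and 3.86 times the level of other cells.

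Interleukin-4 and interleukin-13 RNA was concentrated in basophils. Of 8 measured cytokines, Il4, Il13, Il6 and Csf1 were higher in both libraries and Vegfa was lower. Il4 stood at 214 CPM (142 to 309) in library 1 and 361 CPM (295 to 436) in library 2, with a UMI in 9 of 19 and 30 of 39 basophils. The cells held 0 to 7 UMIs per cell, median 0, in library 1 and 0 to 16 UMIs per cell, median 2, in library 2. Basophils held 45.2% of the 62 UMIs of gated cells in library 1 and 62.6% of the 171 in library 2. All other gated cells had 0.643 and 0.757 CPM, and barcodes of 10 to 100 UMIs 1.74 and 2.12 CPM. After thinning, a UMI remained in 18.2% and 34.3% of basophils and in 0% and 0.094% of B-lineage cells, of which 0% and 0.153% held one before thinning. Il13 stood at 115 CPM (64.2 to 189) in library 1 and 229 CPM (178 to 290.4) in library 2, in 6 of 19 and 21 of 39 basophils, and basophils held 33.3% of the 45 UMIs of gated cells in library 1 and 56.2% of the 121 in library 2. Il4 and Il13 were seen together in 3 of 19 and 16 of 39 cells, and neither in 7 and 4. Library 2 was the higher for both genes, but its intervals overlapped those of library 1. Il10, Il3 and Csf2, which basophils can make in other settings, had at most 1 UMI in either library.

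Il6 and Il1b stood at higher CPM in basophils than Il4 and Il13, but with smaller folds over other cells. Il6, a cytokine of inflammation, stood at 1597 CPM (1388 to 1829) in library 1 and 3935 CPM (3713 to 4168) in library 2, and all other gated cells had 102 and 55.6 CPM. Basophils held 3.74% of the 5588 UMIs of gated cells in library 1 and 19.9% of the 5865 in library 2. In library 1 the cells held 0 to 62 UMIs per cell, median 1, and in library 2 0 to 108 UMIs per cell, median 17. A UMI of Il6 was seen in 13 of 19 and 34 of 39 basophils, and in 35.6% and 73.2% after thinning, against 3.40% and 1.99% of B-lineage cells before thinning and 0.907% and 0.543% after. Il1b, the precursor of interleukin-1 beta, stood at 1658 CPM (1445 to 1894) in library 1 and 5438 CPM (5176 to 5709.9) in library 2, against 925 and 337 CPM in other cells and 3089 and 1427 CPM in the Csf3r group. In library 1 a single cell held 53.0% of the Il1b UMIs, and the level without it was 804 CPM, below that of other cells. The fold of Il1b was 1.79 and 16.1, so it was called higher in library 2 only. Osm, oncostatin M, was likewise 1.09-fold in library 1 and 5.41-fold in library 2. Csf1, the growth factor of macrophages and osteoclast precursors, stood at 527 CPM (410.2 to 667) in library 1 and 165 CPM (122 to 218) in library 2, against 111 and 57.4 CPM. Tnf did not count as measured because it missed the CPM limit in library 2, and stood at 61.1 and 43.8 CPM beside 200.03 and 54.0 CPM in other cells.

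Chemokine RNA was led by Ccl3 and Ccl4, which attract monocytes and other cells. Of 7 measured chemokines, Ccl3, Ccl4, Ccl6 and Ccl9 were higher in both libraries, Cxcl1 was lower, and Cxcl2 and Cxcl10 were neither. Ccl3 stood at 2308 CPM (2055 to 2583) in library 1 and 4070.03 CPM (3844 to 4306) in library 2, against 412 and 113 CPM in all other gated cells. Macrophages with at least 5 C1q UMIs and 1 of Csf1r had 3999 and 1605 CPM, more than basophils in library 1 and less in library 2. Ccl4 stood at 3248 CPM (2946 to 3571) in library 1 and 4148 CPM (3919 to 4386) in library 2, below the 25309.7 and 6693 CPM of these macrophages in both libraries. Of Ccl3, a UMI was found in 17 of 19 and 34 of 39 basophils, and Ccl3 and Ccl4 occurred together in 13 and 31 of them. Ccl9, a ligand of CCR1, reached 665 CPM (532 to 820.02) in library 1 and 745 CPM (649.7 to 849.5) in library 2, a fold of 9.07 and 12.7. Ccl6 reached 963 and 499 CPM, a fold of 7.31 and 6.33, in 8 of 19 and 13 of 39 basophils. Its UMIs were unevenly spread, with 46.0% in 1 cell of library 1. Cxcl2, which attracts neutrophils, stood at 909 and 889 CPM, with 67.2% of the library 1 UMIs in the barcode that also carried monocyte genes.

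**Figure D2:**
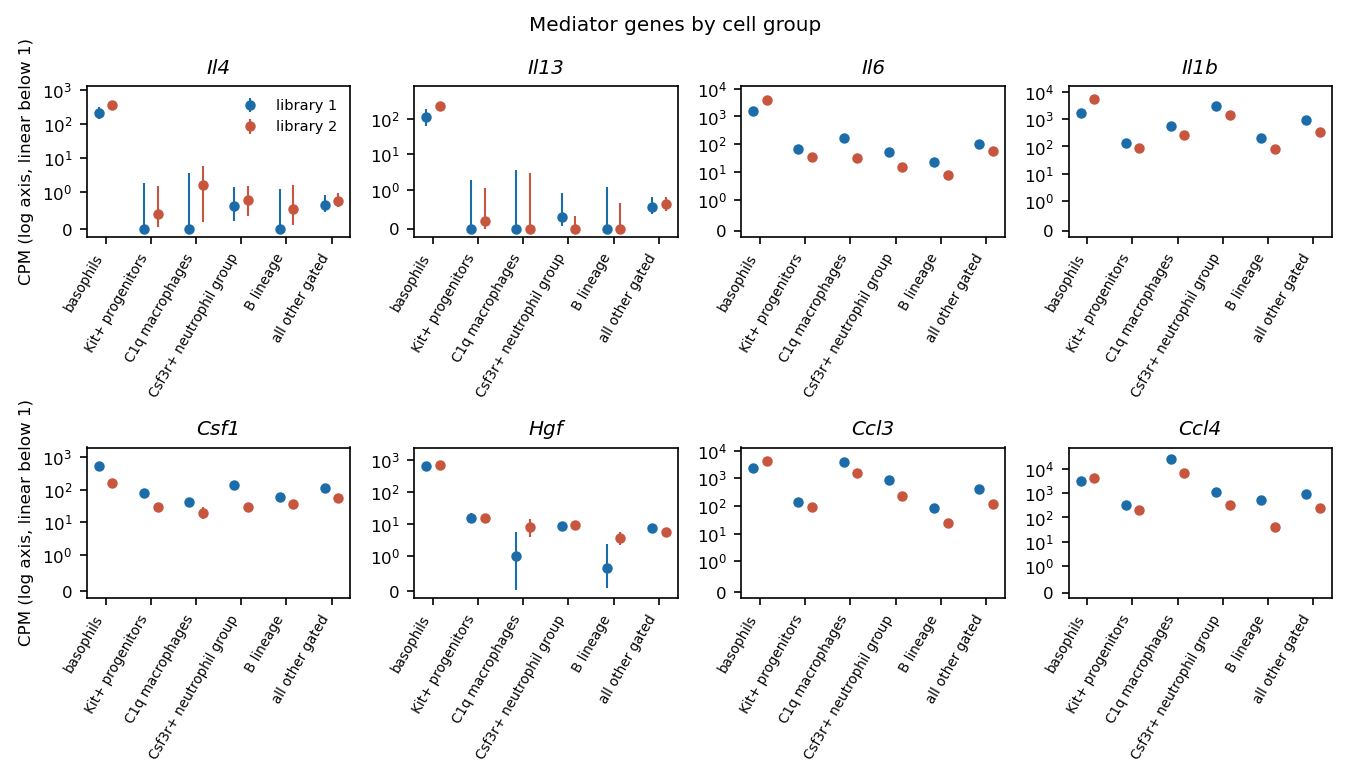
Levels of 8 secreted mediators in CPM (log axis, linear below 1) in 6 cell groups, blue for library 1 and red for library 2, with 95% Poisson intervals. Il4, Il13 and Hgf lie above 100 CPM in basophils and far lower in the 5 other groups, while Ccl4 lies higher in C1q macrophages than in basophils in both libraries. The Csf3r group is the mixed group described in the text.

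Of the ligands that act on bone-resorbing osteoclasts, 9 were measured and 6 were higher: Csf1, Il6, Il4, Il13, Ccl3 and Ccl9. The list was of mixed direction by function, since Il4 and Il13 are known to restrain osteoclast formation and Csf1, Il6 and Ccl3 to favour it. Tnfsf11, which encodes RANKL, the main osteoclast signal, had 0 UMIs in library 1 and 1 in library 2, while other cells had 33.0 and 24.4 CPM. The counting intervals in basophils reached up to 28.2 and 18.8 CPM. Tnfrsf11b, the decoy receptor osteoprotegerin, had 0 and 1 UMIs. Hgf, hepatocyte growth factor, was not on the list but was among the 25 genes with the highest fold, at 634 CPM (505 to 786) in library 1 and 724 CPM (631 to 828) in library 2 and a fold of 85.4 and 129.7. It was found in 15 of 19 and 36 of 39 basophils, which held 17.4% of the 476 UMIs of gated cells in library 1 and 31.3% of the 687 in library 2.

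Some receptors for the cytokines that feed and trigger basophils were higher. Of 12 measured receptors 6 were higher, 3 were lower and 3 were neither. The interleukin-3 receptor was represented by its alpha chain Il3ra at 145 CPM (87.4 to 227) in library 1 and 158 CPM (116 to 211) in library 2, by the common beta chain Csf2rb at 1696 CPM (1481 to 1935) in library 1 and 1209.6 CPM (1088 to 1341) in library 2 and by the interleukin-3 specific beta chain Csf2rb2 at 436 and 425 CPM. Their folds were 6.61 and 8.34, 10.4 and 9.16, and 12.1 and 15.9. Csf2ra, the alpha chain for GM-CSF, was lower, at 38.2 and 30.3 CPM against 104 and 88.8 CPM. Il1rl1, the receptor of the alarmin interleukin-33, stood at 367 CPM (270.4 to 486) in library 1 and 239 CPM (187 to 302) in library 2, a fold of 12.9 and 9.36. Il18rap of the interleukin-18 receptor and Crlf2, the receptor of the alarmin TSLP, stood at 275 and 276 CPM and at 183 and 185 CPM. Il1r2, a decoy for interleukin-1, and Tlr2 were lower, Il1r2 at 30.6 and 10.1 CPM against 192 and 154 CPM.

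The leukotriene route was present in part. Alox5, which starts leukotriene synthesis, stood at 283 CPM (199 to 389.7) in library 1 and 334 CPM (271 to 406) in library 2, a fold of 9.93 and 11.6, and its partner Alox5ap at 1016 CPM (851 to 1204) in library 1 and 1108 CPM (992 to 1235) in library 2, a fold of 2.83 and 3.14. Lta4h, which turns the intermediate into leukotriene B4, was lower, at 30.6 and 67.4 CPM against 159.6 and 207 CPM. Ltc4s, which makes leukotriene C4, had 0 and 1 UMIs, and Hpgds, the haematopoietic prostaglandin D synthase, 0 and 7, of which 6 lay in the barcode with mast cell genes. Alox15, a lipoxygenase, was under the CPM limit, at 84.1 CPM (42.0 to 150.4) in library 1 and 80.9 CPM (51.8 to 120.3) in library 2, and basophils held 52.4% of the 21 UMIs of gated cells in library 1 and 54.5% of the 44 in library 2.

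Among 15 measured transcription factors 4 were higher and 4 lower. Gata2 is given above. Cebpa, a factor of granulocyte development, stood at 183 CPM (118 to 273) in library 1 and 108 CPM (73.7 to 152) in library 2, a fold of 6.87 and 3.63. Runx1 reached 581 and 317 CPM and Ikzf2, the factor Helios, 160.5 and 236 CPM, with folds of 3.31 and 2.27 and of 11.4 and 24.5. Irf8, which directs cells to monocyte, dendritic and B lineages, was lower, at 38.2 and 6.74 CPM against 124 and 102 CPM, and so was Id2, at 99.3 and 10.1 CPM against 232 and 219 CPM. Runx2 and Bhlhe40 were lower as well. Gata1 was not measured.

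Adhesion and surface receptor genes had a mixed outcome. In the adhesion list 6 of 14 measured genes were higher, 3 lower and 5 neither. Itga2b, the integrin chain CD41, stood at 565 CPM (444 to 709.9) in library 1 and 340.3 CPM (277 to 413) in library 2, a fold of 5.42 and 3.88, while platelet genes such as Pf4 and Ppbp were lower. Cxcr4, the receptor that holds cells in marrow, stood at 558 CPM (437 to 701) in library 1 and 617 CPM (530.5 to 713) in library 2, a fold of 2.86 and 3.56, and Ccr1 at 389.7 and 239 CPM, a fold of 2.25 and 2.48. Itgam, the chain CD11b, was lower, at 38.2 and 33.7 CPM against 140.3 and 123 CPM. In the list of inhibitory and activating receptors 5 of 11 were higher: Cd200r1, Cd200r3, Fcgr2b, Fcgr3 and Cd84. Cd300lf was lower. Fcgr2b, the inhibitory IgG receptor, stood at 222 and 125 CPM and Fcgr3, an activating IgG receptor, at 405 and 519 CPM.

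Genes outside the lists filled much of the top of the ranking by fold. The 25 genes with the highest lower fold of both libraries held the 3 of the rule and, from the lists, Cd200r3, Ms4a2, Cpa3, Il4, Cyp11a1, Il13, Slc18a2, Gata2 and Gzmb. Cyp11a1, the enzyme that starts steroid hormone synthesis, stood at 955 CPM (795 to 1138) in library 1 and 1247 CPM (1123 to 1380.3) in library 2 in 15 of 19 and 38 of 39 basophils, against 4.54 and 2.57 CPM. Csrp3, a protein best known from striated muscle, stood at 122 CPM (69.9 to 199) in library 1 and 182 CPM (137 to 237) in library 2, against 0.472 and 0.746 CPM in other cells. Its UMIs came from 6 of 19 and 22 of 39 basophils. Cdh1, which encodes E-cadherin, stood at 275 CPM (193 to 381) in library 1 and 121 CPM (85.0 to 168) in library 2, a fold of 171 and 84.0. Gzmc, another granzyme, reached 573 and 630.05 CPM, but in 7 of 19 and 10 of 39 basophils only, with 46.7% and 35.8% of its UMIs in 1 cell. Aqp9, a channel for water and glycerol, reached 436 and 323 CPM, a fold of 44.4 and 42.2. Others were Slco2b1, an anion transporter, Hs3st1, a heparan sulfate sulfotransferase, Tbc1d4, a regulator of vesicle traffic, P2ry1, an ADP receptor, Padi2, which converts arginine to citrulline, Pomgnt1, a glycosyltransferase, and Gm12840. These 7 had folds of 20.1 to 101 in both libraries.

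By level, the proteases came first and general cell genes followed. The 15 genes with the highest lower CPM of both libraries, mitochondrial and ribosomal protein genes aside, were Prss34, Mcpt8, Tmsb4x, Eef1a1, Hsp90aa1, Hsp90ab1, Srgn, Ftl1, H3f3b, Malat1, Fau, Ccl4, Actb, Hspa8 and Actg1. Actb, the cytoskeletal actin, stood at 3209 and 3689 CPM, beside 3398 and 3661 CPM in other cells. The heat shock gene Hsp90aa1 stood at 9735 and 5205 CPM, over 0 to 282 UMIs per cell, median 9, in library 1 and 0 to 282 UMIs per cell, median 10, in library 2.

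Markers of other cells were mostly lower or near 0. Of the 2883 measured genes 9.02% were at least 2-fold lower in basophils in both libraries. Of 8 measured neutrophil genes 7 were lower. S100a8 stood at 1421 and 1243 CPM against 24974 and 29538 CPM in other gated cells and 21106 and 26069 CPM in barcodes of 10 to 100 UMIs. All 6 stromal genes were lower, with Col1a1 at 695 and 296 CPM against 13122 and 10443 CPM. The 4 measured MHC class II genes were lower, H2-Aa with 1 and 3 UMIs and Cd74 at 290.4 and 138 CPM against 746 and 733 CPM. All measured erythroid (4), platelet (3) and B-lineage (2) genes were lower too. Of the T and NK cell genes only Nkg7 was measured, and it was higher, while the 1 measured endothelial gene, the 2 monocyte and macrophage genes and the 3 survival genes were neither. The monocyte and macrophage genes summed to 1161 and 97.7 CPM, with a median of 0 per cell. Eosinophil genes were near 0, with Epx at 0 UMIs in both libraries and Prg2 at 0 and 1. None of the 12 mast cell genes was measured. In library 1 they summed to 8 UMIs, all of Kit. In library 2 they summed to 445 UMIs, of which the barcode ranked 22 held most, 398 of its UMIs lying in Cma1, Mcpt4, Tpsab1, Tpsb2 and Mrgprb2. Kit itself, which marks progenitors and mast cells, was at 61.1 and 108 CPM and, without the 3 barcodes with mainly genes of other cells, at 35.7 and 48.1 CPM.

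Immediate early genes, which many cells switch on within minutes of handling or signalling, were not higher. Of 16 measured, none was higher and 6 were lower: Fos, Fosb, Egr1, Nr4a2, Ier5 and Btg2. The list median was -0.92 and -0.95 on the log2 scale, beside 0.12 and 0.09 for all measured genes. Fos stood at 535 CPM (417 to 676) in library 1 and 94.3 CPM (62.7 to 136) in library 2, against 1651 and 1041 CPM in other cells, and 65.7% of the library 1 UMIs lay in the barcode with monocyte genes. Without the 3 barcodes Fos was at 205 and 96.1 CPM. Of 13 measured feedback genes, Cish, a target of interleukin-3 and STAT5, Spry2 and Tnfaip3 were higher and Socs3, Dusp1, Dusp2 and Rcan1 lower. Cish stood at 259.8 and 276 CPM, a fold of 5.43 and 7.75, and Tnfaip3, a brake on NF-kappaB, at 1169 and 842 CPM, a fold of 2.68 and 5.65.

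Along their protease content the basophils also differed in cell cycle genes, progenitor granule genes and some chemokine genes. Ordered by the share of their UMIs that were Prss34 plus Mcpt8, a value the rule used, they ran from 0.0745% to 13.7% in library 1 and from 0.0914% to 13.6% in library 2. They were divided at the median, 5.97% and 4.49%, with 4 and 6 cells within 1 point of it, so the high-protease and low-protease cells are ranges and not types. The 10 and 20 cells above were also deeper, with median 6797 and 8172 UMIs against 4513 and 3933 in the 9 and 19 below. Cell cycle genes summed to 3463 and 3630 CPM above and to 521 and 808 CPM below. At least 10 cell cycle UMIs were held by 6 of 10 and 9 of 20 cells above, and by 1 of 9 and 1 of 19 below. Mki67, a marker of dividing cells, stood at 830.1 and 681 CPM above and at 18.6 and 88.7 CPM below. The progenitor granule genes Mpo, Elane, Prtn3 and Ctsg summed to 2166 and 4234 CPM above and to 558 and 1724 CPM below. The part of depth in these counts was not tested.

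Of 1088 genes measured in both ranges of both libraries, 28 (2.57%) were at least 2-fold higher in the high-protease cells in both libraries and 26 (2.39%) in the low-protease cells. Prss34 and Mcpt8, by which the cells were divided, are among the 28, and without the genes of the rule 26 of 1085 remained in each direction. From the lists the former were Ctsg, Mpo, Mki67, Top2a, Stmn1 and the platelet gene Pf4. Of the 52 Pf4 UMIs in library 2, 35 lay in the barcode with platelet genes, and without all 11 barcodes Pf4 was 1.25 and 1.20 times as high in the high-protease cells. Ctsg, Mpo, Mki67, Top2a and Stmn1 were then still at least 2-fold higher there in both libraries, Mki67 at 10.3 and 6.58 times. The latter were Ccl4, Ccl9, Cxcl2, Cxcl10, Cd44, Ier3 and Mcl1. Ccl4 stood at 5895 and 7665 CPM in the low-protease cells and at 1401 and 2319 CPM in the other. Ccl9 stood at 1451 and 1271 against 117 and 471 CPM. The 3 barcodes with mainly monocyte, vessel or mast cell genes lay in the low-protease cells, and of all 11 with genes of other cells 5 lay there and 6 in the high-protease cells. Without the 3, Ccl4, Ccl9 and Cxcl2 were still at least 2-fold higher there in both libraries, with Ccl4 at 5.56 and 3.49 times the high-protease level, and at 5.07 and 4.57 times without all 11. In library 1 the ratio without the 3 barcodes was 0.66 for Cd44, 1.73 for Mcl1, 1.65 for Cxcl10 and 1.88 for Ier3, all under 2. Summed over Il6, Il1b, Ccl3 and Ccl4, the median cell held 5676 and 31751 CPM in the low-protease cells and 3020 and 11542 CPM in the other, and single cells overlapped widely, from 165 to 77477 CPM in the low-protease and from 299 to 26287 CPM in the high-protease cells of library 1.

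Cell cycle RNA was present in basophils of both libraries. At least 10 cell cycle UMIs were found in 7 of 19 (36.8%) and 10 of 39 (25.6%), against 18.7% and 23.0% of all other gated cells, whose median depth was lower. Of 14 measured cell cycle genes none was higher or lower in basophils than in other cells. Mki67 was detected in 7 of 19 and 14 of 39 basophils, and in 18.9% and 16.4% after thinning. Il4 occurred in 5 of the 7 and 12 of the 14 cells with Mki67. Among the cells without Mki67, 4 and 18 held Il4 and 8 and 7 did not. Basophils with at least 10 cell cycle UMIs were deeper, with medians of 9633 and 15842.5 UMIs against 5045 and 4582 in the others, and the part of depth was not tested. Cd34, a progenitor marker that vessel lining also expresses, had 2 UMIs in library 1, both in the barcode with vessel genes, and 8 in 5 cells of library 2, 4 of which held Mki67. Ctsg, cathepsin G, was the progenitor granule gene that was higher than in other cells, at 764 CPM (622 to 929) in library 1 and 1135 CPM (1017 to 1263) in library 2. Elane and Prtn3 were lower, with Elane at 45.8 and 43.8 CPM against 556 and 1140.1 CPM.

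**Figure D3:**
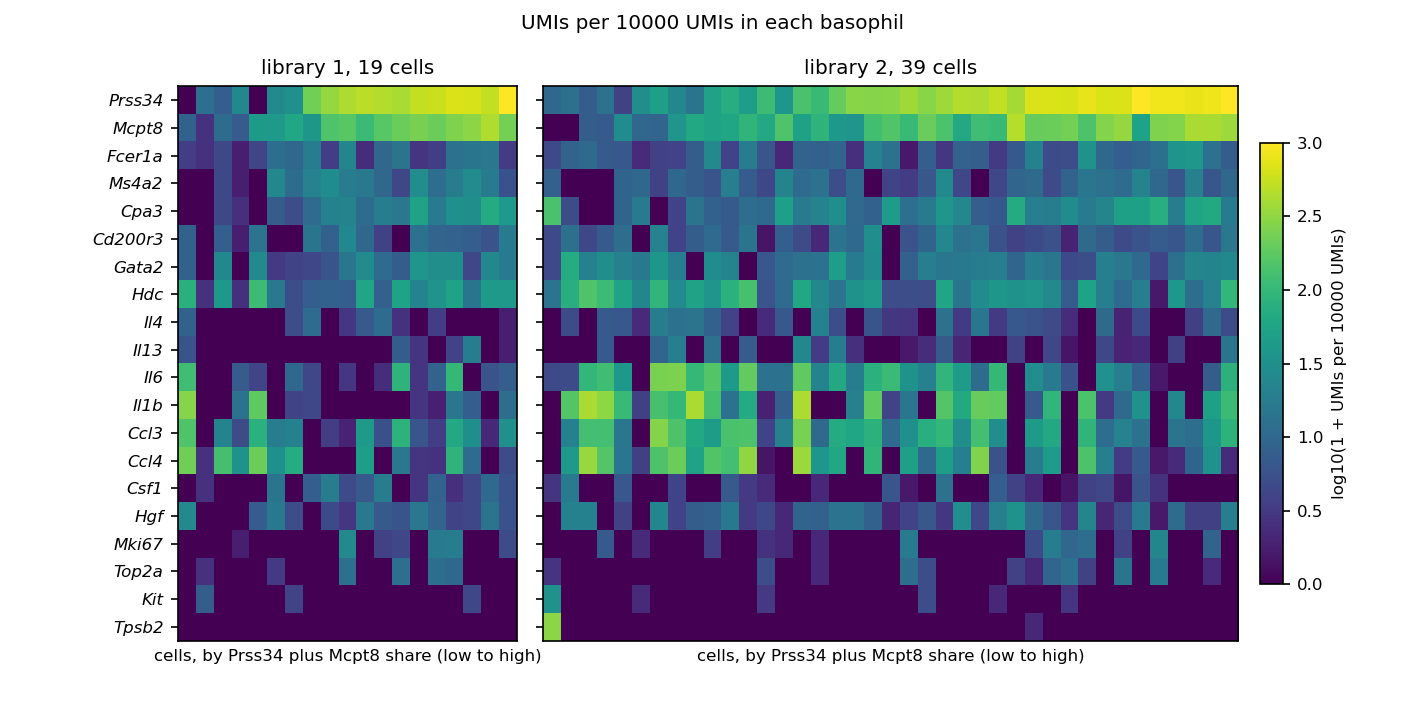
Each column is 1 basophil, ordered from low to high share of Prss34 plus Mcpt8, in library 1 (19 cells) and library 2 (39 cells), and colour gives log10(1 + UMIs per 10000 UMIs of the cell). Hdc appears in every cell. Il6, Il1b, Ccl3 and Ccl4 are brighter in library 2 and dark in some cells of both libraries. Mki67 and Top2a appear mostly towards the right, and the first column of library 2 is the barcode with Tpsb2 and Kit.

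Between the libraries, basophils of library 2 held more Il6 and Il1b, while all other cells of library 2 held less. Of 3192 genes measured in basophils for this comparison, 209 (6.55%) were at least 2-fold higher in library 2 and 356 (11.2%) at least 2-fold lower. With Poisson intervals that did not overlap, 65 (2.04%) were higher and 155 (4.86%) lower. Il6 was 2.46 times as high in library 2 as in library 1 in basophils and 0.547 times in all other gated cells. For Il1b these ratios were 3.28 and 0.364, for Osm 3.73 and 0.751, and for Ccl3 1.76 and 0.275. The median cell held 1 and 17 UMIs of Il6, 1 and 28 of Il1b, and 6 and 25 of Ccl3. Single cells of the libraries overlapped, from 0 to 62 UMIs of Il6 in library 1 and from 0 to 108 in library 2. Without the 3 barcodes with mainly genes of other cells Il6 stood at 1793 and 4002 CPM and Il1b at 1793 and 5540.1 CPM, and without all 11 at 1900.1 and 3962 CPM and at 1909.6 and 4899 CPM. Heat shock genes, which cells raise under stress, moved the other way between the libraries in basophils, though not all by more than in other cells. Hsp90aa1 was 0.535 times as high in library 2 basophils, against 0.818 times in other cells, and Hspb1, Hspe1 and Dnaja1, picked after their values were seen, were 0.0564, 0.3997 and 0.442 times as high, against 0.690, 0.789 and 0.827 times. Without all 11 barcodes the ratio of Hsp90aa1 was 0.522. Hspa1a and Dnajb1 were then 0.847 and 0.715 times as high, no lower than the 0.704 and 0.686 times in other cells. In library 2 a single basophil barcode held 84.2% of the Hspa1a UMIs. The part of stress in the library difference was not tested. Serpinb2, an inhibitor of plasminogen activators, had 2 UMIs in 1 cell of library 1 and 206 in 15 cells of library 2, at 694 CPM (603 to 796) there, and the largest share of a single cell was 27.2%. Csf1 went the other way, from 527 to 165 CPM, a ratio of 0.313, beside 0.518 in other cells.

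Single barcodes held much of the remaining difference among genes lower in library 2. Of the 155 genes with lower levels in library 2 and intervals apart, 66 had over 50% of their library 1 UMIs in 1 barcode, and for 51 of these it was the barcode with monocyte genes. They included Rsad2, Cmpk2, Mx1, Ifi207, Ifi209 and Slfn5, genes that interferon induces, and 4933424L21Rik. Rsad2 went from 1276 to 161 CPM in library 1 when that barcode was left out. Selp had 96.6% of its library 1 UMIs in the barcode with vessel genes. Without the 3 barcodes 223 genes were at least 2-fold higher in library 2 and 262 lower, 69 and 93 of them with intervals apart. Among the 65 genes higher in library 2 with intervals apart, only 10 had over 50% of their library 2 UMIs in 1 barcode. Tpsb2, Cma1 and Mcpt4, among the 8 genes most raised in library 2, lay at 98.3% to 100% in the barcode with mast cell genes. Atl1 had 98.2% in another single cell. Hbb-bs and Hbb-bt, globin genes, were 11.7 and 7.05 times as high in library 2 basophils and 7.43 and 7.72 times in other cells of library 2, and free RNA moved alike, with Hbb-bs at 2791 and 18033 CPM in barcodes of 10 to 100 UMIs. Car2, carbonic anhydrase 2, stood at 22.9 and 189 CPM. Prss34 and Mcpt8, which the rule used, were 1.14 and 1.08 times as high in library 2.

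**Figure D4:**
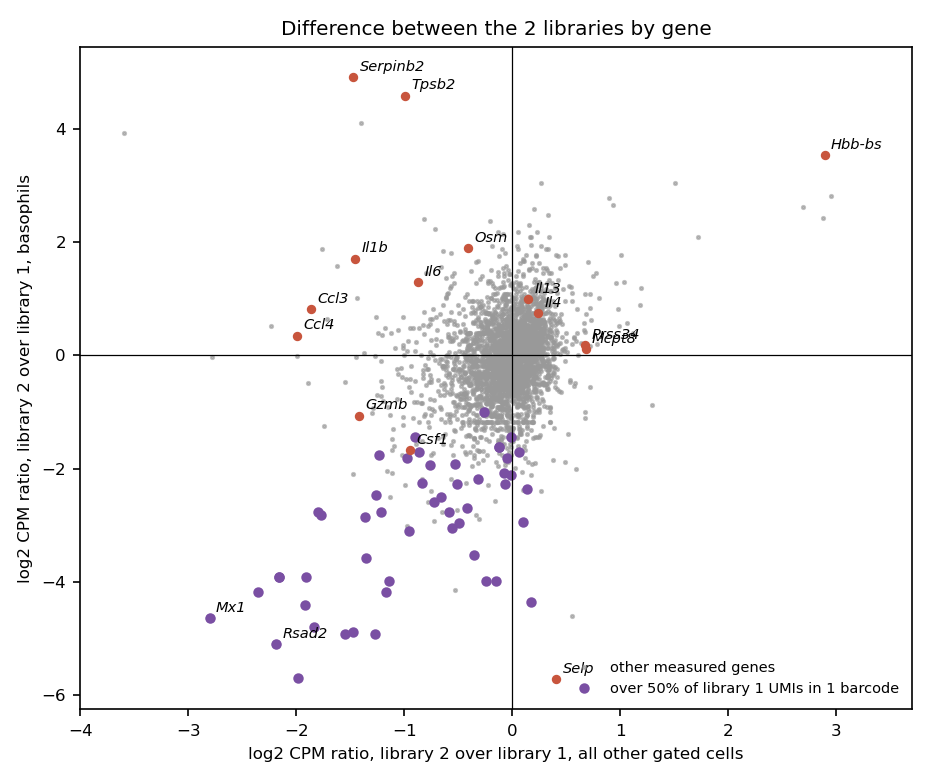
Each point is a gene, with the log2 ratio of library 2 to library 1 in all other gated cells on the horizontal axis and in basophils on the vertical axis, purple where the deepest barcode of library 1 held over 50% of the gene's library 1 UMIs and red for other labelled genes. Counts under 3 were set to 3. Il1b, Il6, Osm, Ccl3 and Ccl4 lie in the upper left, higher in library 2 among basophils and lower among other cells, and Rsad2 and Mx1 lie with the purple points at the lower left.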

How the data were processed

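Droplet-based single-cell RNA counts were deposited as 1 matrix per library, with whole-number UMI counts per gene and barcode made by the authors. Per the submitters' processing notes, FastQC 0.11.9 was used, and GRCh38 and mm10 are listed as builds with no role. An aligner or counter is not given in the sources used here. Of 99819 features, the 42693 without a mouse Ensembl gene ID were left out, with 0.602% of UMIs in library 1 and 0.431% in library 2. Reads shared by near-identical paralogs, such as the mast cell proteases, or by antisense genes may have been split or lost in counting. The symbols Lilr4b and Hist1h2ap did not match a feature.

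Barcodes with at least 1000 UMIs and at most 20% mitochondrial UMIs were kept, and UMIs were summed over cells, divided by the total and scaled to CPM. Counts under 3 were set to 3 before a fold was taken. A gene was measured in the comparison with other cells where the mean of both groups reached 50 CPM in each library (2883 genes), and between libraries where it had at least 20 UMIs over both and a mean of 50 CPM (3192 genes). Intervals are 95% exact Poisson or Clopper-Pearson. Thinned shares are expected values at 1000 UMIs. Genes were named from lists, from the 25 highest lower folds, the 15 highest lower levels and the 8 genes most apart per direction between libraries, and 1 gene of the ranking by fold is not reported here. The members and lists were chosen with earlier results of these data known. Python 3.11.15, NumPy 2.4.6, SciPy 1.17.1, pandas 2.3.3 and Matplotlib 3.10.9 were used, and the scripts were tested on simulated data. Neither library could be assigned to force or control from the labels. The alternatives varied the rule, the depth and mitochondrial limits, the scaling, the CPM minimum and the cells included.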

Additional observations from a re-analysis of the deposited data

How the results depend on the processing

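Without the Fcer1a requirement the share of basophils was 0.534% and 0.884% of gated cells (50 and 110 cells), 126 genes were at least 2-fold higher than in other cells in both libraries, 26 of them in the functional lists, and 299 genes were at least 2-fold apart between the libraries. With no minimum CPM 1131 genes were higher and 411 lower. With basophils holding 10 or more UMIs of Mpo, Elane, Prtn3 and Ctsg left out, a choice made after seeing the data, the shares were 0.107% and 0.209% (10 and 26 cells). The cause of these shifts was not tested, beyond the cells each setting adds or removes. Over 38 genes in 2 libraries and 15 alternatives, 822 of 1140 ratios to other cells stayed within their counting interval and 318 moved out of it. A reversal was counted only where the main ratio was at least 2-fold either way, and 0 were found. For smaller ratios, such as that of Il1b in library 1, a change of direction was not counted as a reversal. Without the 3 barcodes with mainly genes of other cells, 264 genes were higher, 315 lower and 485 apart between the libraries, and without all 11 with such genes 280, 311 and 459. In library 1 a level under 22.9 CPM, and in library 2 under 10.1 CPM, is under 3 UMIs. No paired analysis was possible because neither library carries a group and each is a single pool.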
